A study of Bos taurus with 8 samples.

Results

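The 39 genes described here encode nuclear receptors, transcription factors that are switched by small lipophilic ligands or, for the orphan members, act without a known hormone. They were taken by gene symbol from a count table of 33132 genes, and all 39 symbols were present. RNA came from rumen tissue, the fermentation chamber of the ruminant forestomach, of 4 newborn male calves and 4 adult steers, which are castrated males. All animals were angus crosses, with 1 library per animal. Age and castration differ together between the groups and cannot be told apart, and no label gives diet, time of day or batch. The series asks which genes, pathways and transcription factors accompany rumen growth after birth, and the 1 comparison open to it sets steers against newborn calves.

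A nuclear receptor binds DNA through a pair of zinc fingers and its ligand through a separate pocket, and the ligand decides whether it recruits coactivators or corepressors. Steroid receptors bind as homodimers, whereas the receptors for retinoic acid, thyroid hormone, vitamin D, fatty acids, oxysterols and xenobiotics pair with a retinoid X receptor. In squamous epithelia, such as the lining of the rumen, retinoic acid is known to hold back cornification, and PPAR receptors respond to fatty acids.

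Levels are given as CPM, counts scaled to a common library size after TMM normalisation, and group values as mean ± SD over 4 animals. A change is the log2 fold change of steers over calves ± SE from edgeR's quasi-likelihood test, fitted over all 16326 genes that passed the filter on low counts, and each adjusted p is the Benjamini-Hochberg value of that fit over all those genes. Reads were counted over whole gene spans, introns included, so the CPM of different receptors is not compared here. Sums of cell type markers do add CPM over genes, and the most abundant markers weigh most in them. Library totals were 42322022 to 54449684 counts. The p-values measure the spread between these animals.

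Of the 39 receptors 30 were tested, 3 rose in steers (NR1D1, NR1D2 and ESRRA) and 6 fell (RARA, RARB, RARG, RXRG, ESR2 and NR5A2). Over all genes tested 7.7% rose and 9.16% fell, 16.9% in all, against 30% of the receptors tested (9 of 30). Calf and steer CPM were fully separate for 10 of the 30 receptors (33.3%), and for 23.3% of all genes tested. All 9 receptors that passed the test were among the 10, and the tenth was RXRA. The median log2 change was 0.07 over the 30 receptors and 0.04 over all genes. The plot of changes by class shows that the retinoic acid receptors moved down together and the REV-ERB receptors up together, whereas the lipid sensors, the NR4A receptors and the COUP-TF and testicular receptors had no member past the test.

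**Figure D1:**
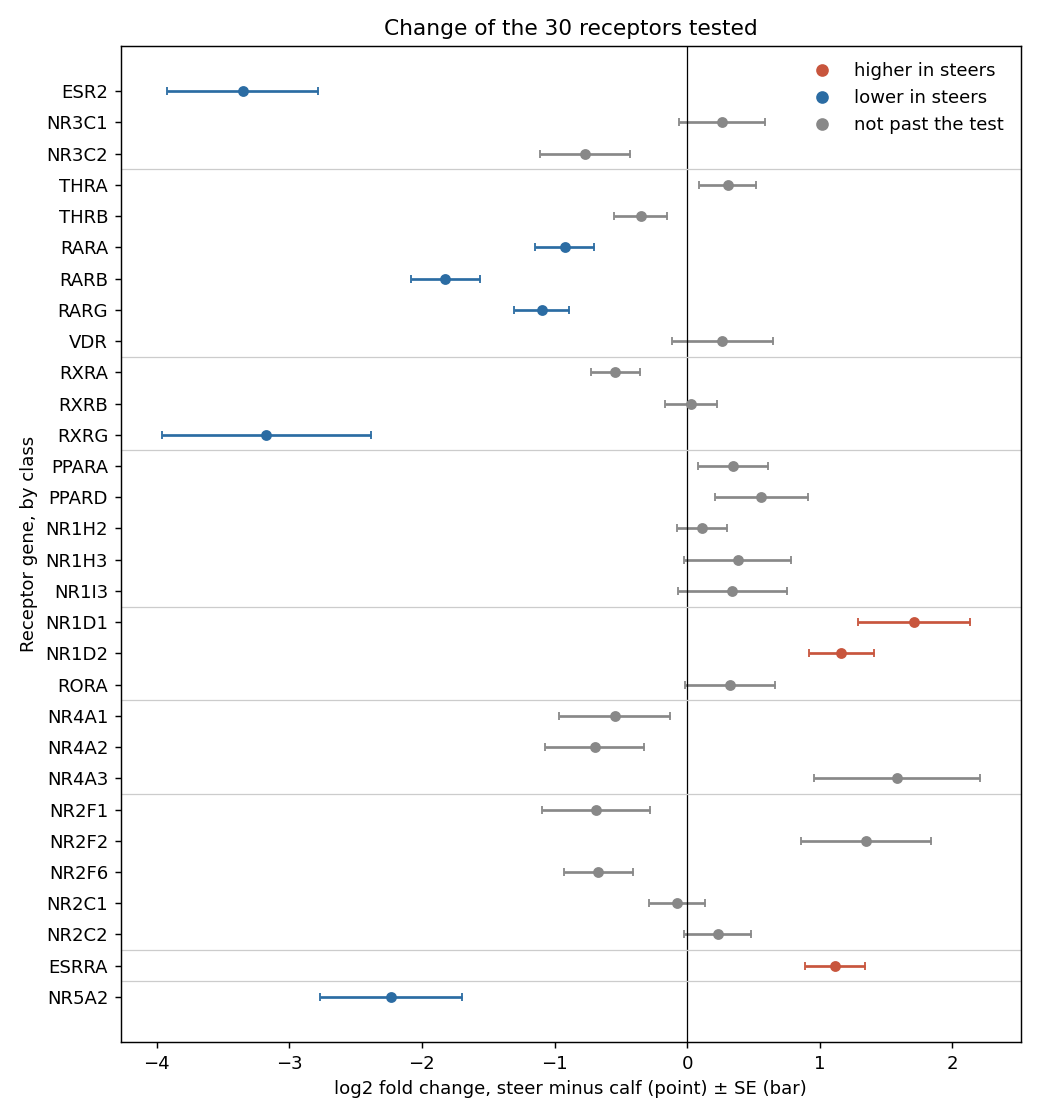
Log2 fold change of steers over calves (horizontal axis) for each of the 30 receptors tested, with the SE as a bar, grouped by class (grey lines) and coloured by the result of the test. The 6 receptors that fell lie between -3.35 and -0.92, and the 3 that rose between 1.11 and 1.71.

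The RNA of cell type markers differed between the groups as well. Over all genes tested 16.9% passed, the share to set beside the counts of markers that rose or fell. The summed CPM of 6 markers of the upper squamous layers was 37781 to 90068 in calves and 806 to 2143 in steers (5 of 6 fell). Most of the calf sum was KRT4 and KRT13 (means of 37721 and 29691 CPM in calves, 1.37 and 522 in steers). MAL, at 130 ± 64 and 93.0 ± 99.5 CPM, did not pass (adjusted p = 0.686). Smooth muscle markers summed to 4192 to 13032 CPM in calves and 8815 to 90695 in steers (4 of 6 tested rose), fibroblast markers to 1677 to 4844 and 613 to 1418 (3 of 7 fell), and enteric neuron and glia markers to 36.6 to 50.9 and 14.9 to 25.1 (3 of 7 fell). Macrophage and lymphocyte markers summed to 13.02 to 17.2 and 19.7 to 47.4 CPM (3 of 5 tested rose), endothelial markers to 250.3 to 524.6 and 174.4 to 259.1 (2 of 7 fell). Basal keratinocyte markers overlapped, at 11510 to 16957 and 8138 to 15710 CPM (1 rose and 1 fell of 7). Columnar epithelium markers summed to 17.7 to 41.6 CPM in calves and 13.2 to 21.5 in steers (1 of 4 tested, KRT18, fell), with the intestinal factor CDX2 at 0 throughout. Liver markers summed to 20.3 to 46.8 and 1.53 to 4.50 CPM. The liver marker APOA1, an apolipoprotein, fell with 6273 counts in calves and 400 in steers (-3.84 ± 0.47), while albumin had 28 counts in calves and 0 in steers. In bulk tissue, fewer cells of a type and less RNA per cell cannot be told apart, and the part of these shifts in the receptor values below was not tested.

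All 3 retinoic acid receptors fell. RARB, the isotype whose own gene is a known target of retinoic acid (chromosome 27, 40196705 to 40382263, in the table's own coordinates, for which the sources used here name no build), had 22.4, 26.05, 26.7 and 26.6 CPM in calves 1 to 4 and 7.85, 4.62, 6.09 and 10.2 in steers 1 to 4. The lowest calf stood above the highest steer by more than the whole range of either group, and the change was -1.82 ± 0.26 (adjusted p = 0.0019). RARG, the main isotype of epidermal keratinocytes (chromosome 5, 26774184 to 26794819), had 203, 205, 159 and 146 CPM in calves and 77.3, 68.6, 96.8 and 90.7 in steers. Its change was -1.10 ± 0.20 (adjusted p = 0.00636), and every steer lay below every calf. RARA, the most widely expressed isotype (chromosome 19, 40551152 to 40595283), had 89.3, 78.5, 76.3 and 107.2 CPM in calves and 41.1, 63.6, 43.3 and 37.2 in steers. The change was -0.92 ± 0.22 (adjusted p = 0.0191), again with no overlap. The RARA call ended, at 0.0527 to 0.0599, without calf 1, calf 4, steer 1 or steer 3, whereas those of RARB and RARG were kept with each library left out.

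**Figure D2:**
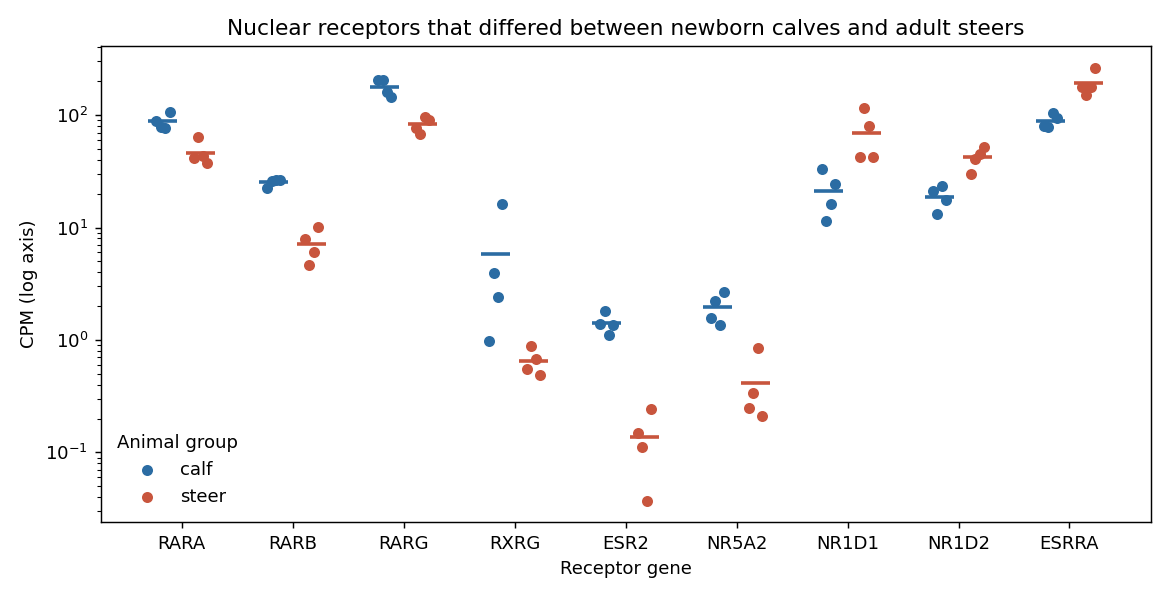
CPM of the 9 receptors that passed the test in each library (points, log axis), with the group mean as a bar, for 4 calves and 4 steers. Calves and steers do not overlap for any of the 9, and RXRG in calf 4 (16.1 CPM) stands far above the other calves.

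The retinoid X receptors, the shared partners of those receptors, did not move as a set. RXRA, the usual epithelial isotype (chromosome 11, 105021652 to 105114880), had 337.0, 330.2, 269.8 and 335.8 CPM in calves and 211.8, 224.1, 216.5 and 222.7 in steers. The groups did not overlap, but the change of -0.54 ± 0.18 missed the threshold (adjusted p = 0.072, and 0.00434 with DESeq2), with a 95% interval of -0.95 to -0.13. RXRB was at 96.6 ± 14.3 and 98.3 ± 16.2 CPM (0.03 ± 0.20, interval -0.41 to 0.46). RXRG, the isotype of muscle, brain and some other tissues (chromosome 3, 3538780 to 3599117), had 0.978, 3.95, 2.40 and 16.1 CPM in calves and 0.550, 0.891, 0.670 and 0.491 in steers. It fell (-3.17 ± 0.79, adjusted p = 0.0229), and calf 4 set much of the size, since the change was -1.91 without it. The RXRG call ended with limma-voom (-2.50, 0.0935) and without steer 1 or steer 3 (0.0594 and 0.0603). The calves ranked by RXRG as they did by the summed adipocyte markers, with 4.68 CPM of the markers in calf 1, 17.1 in calf 3, 136.3 in calf 2 and 500.6 in calf 4. Steers held 27.5 to 434.2 CPM of these markers with RXRG below 1. FABP4 made up most of the sum in each steer (429.7 CPM in steer 1). In calves 1 to 4 FABP4 was at 2.05, 57.0, 10.2 and 394.1 CPM, most of the sum in calves 3 and 4. ADIPOQ, another of the markers, ranged from 0.245 to 0.445 CPM among steers, against 0.0931, 41.7, 1.35 and 45.9 for calves 1 to 4. The means of PLIN1, CIDEC and LEP were also lower for steers, and only that of FABP4 was higher. The sum thus follows FABP4 in most libraries, and the part of adipocytes in the RXRG value was not tested. Of the 4 adipocyte markers tested 1 fell and none rose (25% passed against 16.9% of all genes).

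Genes that carry, make and degrade retinoic acid moved in both directions. Of 18 tested, 5 rose and 4 fell (50% passed against 16.9% of all genes), with a median log2 change of 0.34. Among those that rose, CYP26A1, the enzyme that clears retinoic acid and a known target of its receptors, had 11.2, 7.09, 18.4 and 28.5 CPM in calves and 161, 78.0, 155 and 313 in steers (3.44 ± 0.53, adjusted p = 0.00267), and the change was 2.76 without calf 2 and steer 4 together. ALDH1A1, which makes retinoic acid, went from 105.8 ± 45.9 to 484 ± 331 CPM (2.19 ± 0.53), a call lost without calf 1 or calf 4 (largest adjusted p over the alternatives 0.0525), and its change was 1.41 without calf 2 and steer 4 together. The retinol carrier RBP4 went from 13.5 ± 13.4 to 124 ± 26 CPM (3.20 ± 0.60, and 4.17 without calf 4, the highest calf). LRAT, which esterifies retinol, and CYP26C1, a relative of CYP26A1, were singled out after their values were seen. LRAT rose from 1.45 ± 0.31 to 11.1 ± 6.9 CPM, and CYP26C1 had 4 counts in all calves together against 223 in steers, all 4 in calf 4, so the size of its change is uncertain.

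Carriers that hold retinoids inside the cell were among the genes that fell. CRABP2, which hands retinoic acid to its receptors, had 7.08, 15.7, 4.44 and 8.26 CPM in calves and 0.350, 0.501, 0.465 and 0.789 in steers (-4.06 ± 0.48, adjusted p = 0.000693). CRABP1 went from 6.38 ± 3.01 to 0.103 ± 0.127 CPM (adjusted p = 0.00354), with 20 counts in all steers together, and none in steers 2 and 4. DHRS9, a retinol dehydrogenase also chosen after its values were seen, went from 2.19 ± 1.47 to 0.225 ± 0.199 CPM (-3.22 ± 0.83). CYP26B1, at 3.74 ± 4.51 and 1.55 ± 2.15 CPM, did not pass (adjusted p = 0.459). In the plot of retinoid genes, the retinoic acid receptors, RXRG and the intracellular binding proteins lie on the calf side and CYP26A1, CYP26C1, LRAT, ALDH1A1 and RBP4 on the steer side.

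**Figure D3:**
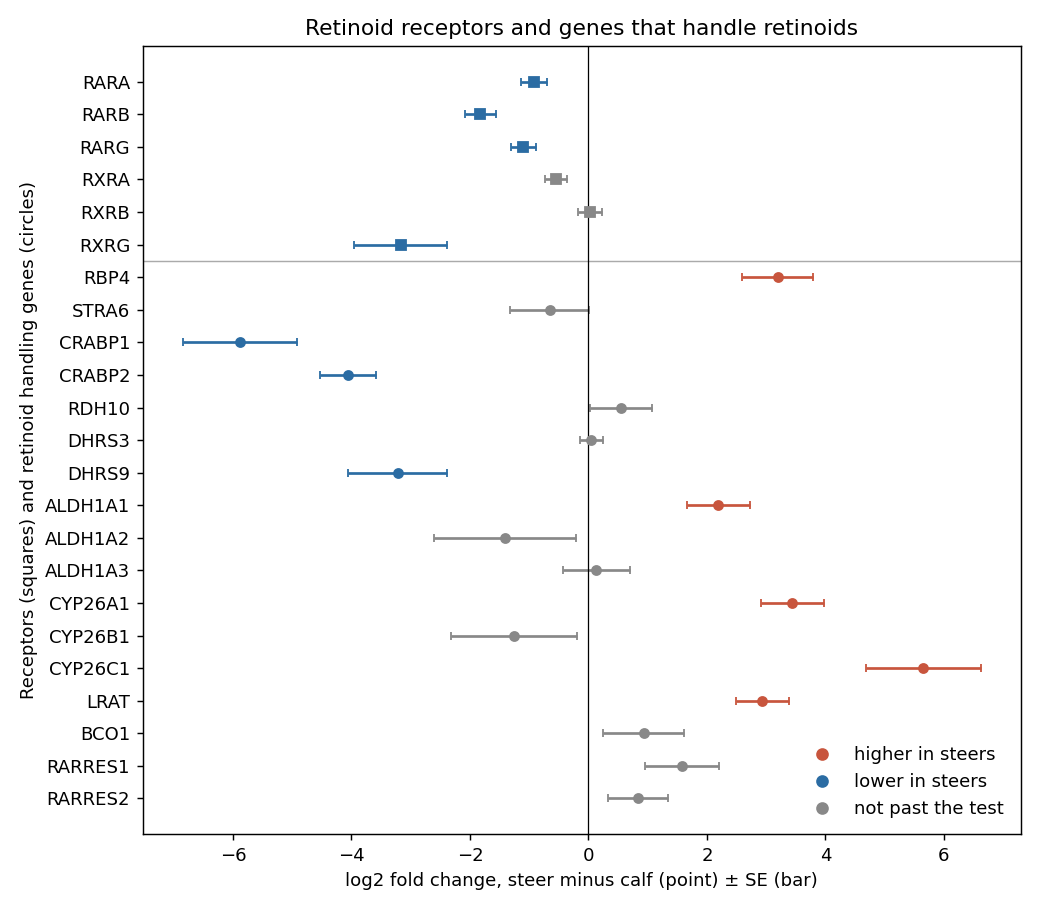
Log2 fold change of steers over calves (horizontal axis, SE as bars) for the 6 retinoid receptors (squares, above the grey line) and the genes that handle retinoids (circles). RARA, RARB, RARG, RXRG, CRABP1, CRABP2 and DHRS9 are lower in steers, and RBP4, ALDH1A1, CYP26A1, CYP26C1 and LRAT are higher.

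The receptors for thyroid hormone and vitamin D did not pass the test. THRA had a mean of 83.2 ± 17.97 CPM in calves against 103 ± 17 in steers (0.30 ± 0.22, 95% interval -0.18 to 0.79), and 55.2% of its span lies in other genes, whose shared reads were dropped. THRB was at 62.7 ± 14.9 and 49.2 ± 4.1 CPM (-0.35 ± 0.20, interval -0.80 to 0.10). VDR was at 3.66 ± 1.05 and 4.39 ± 2.07 CPM (0.27 ± 0.38, interval -0.58 to 1.11), and its sign turned to -0.10 without steer 4. Among genes of thyroid hormone handling and response, none of 6 tested rose and 2 fell (median -0.87, 33.3% passed against 16.9% of all genes). They were THRSP, a lipogenic gene induced by thyroid hormone, at 6.13 ± 6.02 and 0.681 ± 0.144 CPM (-3.16 ± 0.63, and -2.19 without calf 4), and CRYM, which binds the hormone in the cytosol, at 0.784 ± 0.466 and 0.138 ± 0.062 (-2.48 ± 0.62). The CRYM call ended with limma-voom and without calf 1, calf 4, steer 1 or steer 3 (adjusted p up to 0.0762). The deiodinases, which activate or inactivate the hormone, were scarce, with 48 counts of DIO2 in calves and 2 in steers, and 44 and 10 of DIO3. KLF9, a hormone-induced factor, was at 2.23 ± 1.56 and 2.80 ± 1.90 CPM (adjusted p = 0.769). In the vitamin D list, 1 of 3 tested genes fell and none rose (median -0.63, 33.3% passed against 16.9% of all genes). It was the calcium channel TRPV6, from 11.7 ± 4.9 to 1.58 ± 1.16 CPM (-2.88 ± 0.60, adjusted p = 0.0106, and -3.53 without calf 2 and steer 4 together). The inactivating enzyme CYP24A1 had 0 counts in calves and 2 to 4 in each steer.

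Among steroid hormone receptors, ESR2 (estrogen receptor beta) fell and the others did not pass or were too scarce to test. ESR2 (chromosome 10, 76393666 to 76460150) had 1.37, 1.82, 1.11 and 1.36 CPM in calves and 0.150, 0.111, 0.0372 and 0.245 in steers. These values rest on 286 counts in calves and 26 in steers, and every calf was above every steer. The change was -3.35 ± 0.57 (adjusted p = 0.0043), and the call was kept under every alternative run, at log2 changes of -3.83 to -3.02 with 1 library left out. ESR1 (estrogen receptor alpha) had 29 counts in calves and 21 in steers and PGR (progesterone receptor) 3 and 0, so neither was tested. The glucocorticoid receptor NR3C1 had 4.91, 9.46, 7.76 and 5.23 CPM in calves and 4.92, 7.71, 11.3 and 8.89 in steers, and the groups overlapped (0.26 ± 0.33, interval -0.47 to 0.99). The mineralocorticoid receptor NR3C2 had 7.38, 13.3, 6.46 and 4.81 CPM in calves and 4.05, 4.12, 5.92 and 4.64 in steers (-0.77 ± 0.34, adjusted p = 0.152). Calf 2 was the highest for NR3C2.

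Enzymes that act on the ligands of these receptors were measured from 2 fixed lists. In the sex steroid list 3 of 9 tested rose and none fell (median 0.35, 33.3% passed against 16.9% of all genes). HSD17B2, which inactivates estradiol and testosterone, went from 21.4 ± 9.45 to 159 ± 56 CPM (2.89 ± 0.39, adjusted p = 0.00152). GREB1, an estrogen-induced gene of breast cells, had 0.326, 0.334, 0.126 and 0.0418 CPM in calves and 5.35, 5.23, 8.90 and 6.48 in steers (4.95 ± 0.58, adjusted p = 0.000717). It lay on the other side from ESR2, with no overlap between groups for either gene. HSD17B11 rose by 1.16 ± 0.31, a call that ended by library size only and without calf 1, calf 2, calf 4, steer 2, steer 3 or calf 2 and steer 4 together (adjusted p up to 0.0992).

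In the corticosteroid list 2 of 12 rose and 1 fell (median -0.27, 25% passed against 16.9% of all genes). HSD11B2, which inactivates cortisol, was at 6.58 ± 4.36 and 20.01 ± 2.4 CPM (1.60 ± 0.48, adjusted p = 0.0467), and its call ended by library size only and without any 1 of calf 1, calf 4 or the 4 steers (adjusted p up to 0.114). HSD11B1, which regenerates cortisol, was at 1.499 ± 0.48 and 1.14 ± 0.46 CPM (adjusted p = 0.571). Of genes induced by glucocorticoids, KLF15 rose from 7.44 ± 3.80 to 34.1 ± 13.9 CPM (2.19 ± 0.47), TSC22D3 fell from 69.8 ± 19.9 to 30.7 ± 5.1 (-1.18 ± 0.24), and FKBP5 was at 34.998 ± 29.2 and 27.4 ± 16.3 (adjusted p = 0.732).

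Both REV-ERB receptors, the heme-binding repressors of the circadian clock, rose. NR1D1 (REV-ERB alpha, chromosome 19, 40389831 to 40397513) had 33.5, 11.5, 16.2 and 24.2 CPM in calves and 42.3, 115, 80.6 and 42.03 in steers. The change was 1.71 ± 0.42 (adjusted p = 0.0218), steers 1 and 4 lay only a little above calf 1, and the call ended without calf 3 or steer 3 (0.0598 and 0.0526). NR1D2 (REV-ERB beta, chromosome 27, 41985182 to 42013765) had 21.0, 13.2, 23.3 and 17.5 CPM in calves and 29.7, 40.9, 45.1 and 52.3 in steers. All steers were above all calves, the change was 1.16 ± 0.24 (adjusted p = 0.0111), and the call was kept with each library left out. Of the activators that bind the same sites, RORA was at 15.0 ± 2.3 and 18.9 ± 9.4 CPM (adjusted p = 0.559), and its sign turned without steer 2 (-0.03). RORB had 48 counts in calves and 6 in steers and was not tested.

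The other clock genes mostly did not pass. In the clock list 1 of 14 tested rose and none fell (median 0.10, 7.14% passed against 16.9% of all genes). It was BHLHE41 (DEC2), a repressor of the clock activators, with 1.54, 1.10, 1.62 and 2.13 CPM in calves and 12.6, 23.5, 31.6 and 32.1 in steers (3.96 ± 0.37, adjusted p = 0.000252), although 67.2% of its span lies in other genes. ARNTL (BMAL1), the clock activator that REV-ERB receptors repress, was at 12.3 ± 6.6 and 6.37 ± 1.57 CPM (-0.94 ± 0.37, adjusted p = 0.111). PER1 was at 168 ± 53 and 99.3 ± 38.8 CPM (adjusted p = 0.166). The hour at which tissue was taken is not labelled, so a difference in time of day and a difference in age cannot be told apart for these genes.

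The receptors that sense fatty acids, oxysterols, bile acids and foreign compounds gave no call. PPARA had 29.7, 44.6, 33.9 and 21.5 CPM in calves and 28.7, 39.2, 51.8 and 45.5 in steers (0.35 ± 0.26, interval -0.24 to 0.94). PPARD, the PPAR of keratinocytes, had 112, 81.6, 138 and 92.8 CPM in calves and 171, 85.2, 106.1 and 262 in steers (0.56 ± 0.35, interval -0.22 to 1.34). Steer 4 was the highest for PPARD, and the groups overlapped for both genes. PPARG could not be counted in this table. The liver X receptors NR1H2 and NR1H3 were at 135 ± 16 and 146 ± 22 CPM and at 24.1 ± 8.9 and 31.4 ± 16.0 CPM (intervals -0.31 to 0.53 and -0.53 to 1.29). The xenobiotic receptor NR1I3 (CAR) was at 1.65 ± 0.50 and 2.08 ± 0.90 CPM, with 22.9% of its span shared. NR1H4, the bile acid receptor, had 22 counts in calves and 9 in steers, and NR1I2 (PXR) had 18 and 2, so neither was tested.

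The direction of the calls among known targets of these sensors differed from list to list. Of 16 tested PPAR targets 4 rose and 1 fell (median 0.62, 31.2% passed against 16.9% of all genes). The thiolase ACAA2 went from 161 ± 44 to 482 ± 130 CPM (1.58 ± 0.29) and the fatty acid carrier FABP5 from 377 ± 153 to 946 ± 319 (1.33 ± 0.40), while the peroxisomal EHHADH fell from 44.1 ± 6.2 to 8.58 ± 1.93 (-2.36 ± 0.22). The FABP5 call ended with RLE scaling, without calf 2 and steer 4 together and without any 1 library except steer 2 (adjusted p up to 0.106). FABP4, an adipocyte target, was at 116 ± 187 and 186 ± 174 CPM.

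Of 9 tested liver X receptor targets and oxysterol enzymes none rose and 4 fell (median -1.54, 44.4% passed against 16.9% of all genes). APOE fell from 108 ± 82 to 16.1 ± 5.5 CPM (-2.75 ± 0.49, and -2.05 without calf 4, the highest calf), the desaturase SCD from 61.7 ± 27.3 to 20.1 ± 9.4 (-1.62 ± 0.41) and CYP27A1, which makes an oxysterol ligand, from 64.4 ± 40.4 to 13.2 ± 7.4 (-2.29 ± 0.51). The SCD call ended without calf 3, calf 4, steer 1 or steer 3 (adjusted p up to 0.0674). The fourth was the cholesterol exporter ABCG1, named after its values were seen, which fell from 9.81 ± 5.81 to 1.57 ± 0.40 CPM (-2.65 ± 0.53). The related exporter ABCA1 was at 9.26 ± 4.89 and 20.6 ± 13.6 CPM (adjusted p = 0.138). Of 11 tested targets of the xenobiotic receptors 2 rose and 3 fell (median 0.40, 45.5% passed against 16.9% of all genes). The glucuronosyltransferases UGT1A1 and UGT1A6 rose by 2.19 ± 0.50 and 3.64 ± 0.60, but 95.2% of the UGT1A1 span and 19.7% of the UGT1A6 span are shared with other genes, so their values are uncertain, and the UGT1A6 change was 2.87 without steer 4 and 2.71 without calf 2 and steer 4 together. CYP2B6, the classic target of NR1I3, fell from 98.7 ± 37.0 to 30.6 ± 10.5 CPM (-1.69 ± 0.34), CYP2C18 by 1.68 ± 0.38 and the P450 reductase POR by 1.43 ± 0.19 on the log2 scale.

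ESRRA, the estrogen-related receptor that drives mitochondrial genes together with PGC-1 coactivators, rose. It had 80.2, 77.7, 104.6 and 94.7 CPM in calves and 179, 151, 179 and 265 in steers (chromosome 29, 42603705 to 42611807). The change was 1.11 ± 0.23 (adjusted p = 0.00929), every steer was above every calf, and the call was kept under every alternative run. ESRRG had 76 counts in calves and 22 in steers and ESRRB 2 and 4, so neither was tested. PPARGC1A (PGC-1 alpha) was at 4.16 ± 1.59 and 12.6 ± 8.8 CPM and just missed the threshold (1.60 ± 0.49, adjusted p = 0.0505). It passed with DESeq2, with no filter, without robust dispersion, without the 50 most abundant genes, without calf 2, without steer 4 and without both. Its adjusted p ranged from 0.00728 to 0.126 in all alternatives. The related coactivators PPARGC1B and PPRC1, named outside the fixed set, lay on opposite sides, and neither passed. PPARGC1B was at 28.8 ± 5.3 and 53.5 ± 23.6 CPM (0.89 ± 0.30, adjusted p = 0.0683). PPRC1 was at 69.1 ± 15.3 and 42.6 ± 9.2 CPM (-0.70 ± 0.23, adjusted p = 0.0671).

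Among 21 tested coregulators 2 rose and 2 fell (median 0.19, 19% passed against 16.9% of all genes). TBL1XR1, an exchange factor of the corepressor complex, went from 34.5 ± 2.9 to 81.3 ± 17.7 CPM (1.23 ± 0.20, adjusted p = 0.00319), and NCOA4, a coactivator also known as the ferritin autophagy receptor, from 33.1 ± 5.6 to 70.6 ± 21.9 (1.09 ± 0.24). CITED2, a coactivator-binding regulator, fell from 73.6 ± 15.0 to 45.5 ± 7.1 (-0.69 ± 0.21, adjusted p = 0.0492). The NCOA4 call ended in 2 of 18 alternatives, 1 of them the scaling by library size alone (0.0553). That of CITED2 ended in 13 of 18 alternatives, among them the fits that left out 1 library, except that without calf 4 (adjusted p up to 0.152). NCOA7 was at 6.45 ± 1.75 and 3.81 ± 1.53 CPM (adjusted p = 0.173). NRIP1 is listed at 0 throughout because 100% of its span is shared.

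Of the remaining orphan receptors only NR5A2 (LRH-1), a regulator of steroid and bile acid genes, passed the test. It had 1.58, 2.24, 1.35 and 2.68 CPM in calves and 0.250, 0.334, 0.856 and 0.210 in steers (chromosome 16, 78828934 to 78957232). The change was -2.23 ± 0.53 (adjusted p = 0.0191), on 394 counts in calves and 80 in steers, and the call ended without calf 4, without steer 1 and without calf 2 and steer 4 together (0.0511 to 0.0587). The change was -2.89 without steer 3, the highest steer. The intestinal and hepatic receptors HNF4A and HNF4G were too scarce to test. HNF4A had 8 counts, all in calf 2, and of 186 counts of HNF4G steer 4 held 142. A count of 0 in a library allows up to 3 counts, or 0.0502 to 0.0835 CPM over the 8 libraries, for counting error only.

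The COUP-TF receptors, known from mesenchyme and vessels, had wide spreads. NR2F2 (COUP-TFII) had 9.55, 35.5, 13.4 and 13.002 CPM in calves and 25.7, 59.0, 72.7 and 24.7 in steers (1.35 ± 0.49, adjusted p = 0.0899), and reads over 36.8% of the gene were shared and dropped. Calf 2 lay inside the steer range, and without it NR2F2 passed (1.93, adjusted p = 0.0203), as it did with DESeq2 (0.0293). NR2F1 (COUP-TFI) was at 4.59 ± 1.95 and 2.84 ± 1.11 CPM and NR2F6 at 189 ± 41 and 119 ± 34 (adjusted p = 0.285 and 0.106). NR2F6 passed by library size only (-0.78, 0.03). The testicular receptors NR2C1 and NR2C2 were at 9.59 ± 1.24 and 9.08 ± 1.06 CPM and at 31.0 ± 6.3 and 36.4 ± 11.02.

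The NR4A receptors are induced within minutes by stress and handling and need no ligand. NR4A1 was at 12.9 ± 5.65 and 8.84 ± 5.07 CPM, NR4A2 at 3.12 ± 1.18 and 1.92 ± 0.59, and NR4A3 at 0.365 ± 0.181 and 1.10 ± 0.60 (adjusted p = 0.41, 0.235 and 0.114). NR4A3 had 1.35, 0.223, 1.56 and 1.26 CPM in steers, and passed without steer 2 (adjusted p = 0.0312). Of 17 other immediate early genes tested 1 rose and 2 fell (median -0.62, 17.6% passed against 16.9% of all genes). IER3 rose from 80.0 ± 21.7 to 250 ± 72 CPM, IER2 fell from 119 ± 20 to 51.7 ± 13.7, with 80.2% of its span shared, and BTG2 fell from 35.04 ± 3.1 to 18.1 ± 2.0. FOS was at 36.4 ± 22.7 and 34.4 ± 23.0 CPM and EGR1 at 13.7 ± 7.7 and 7.45 ± 5.82 (adjusted p = 0.945 and 0.432).

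Receptors of 3 families lie side by side on 2 chromosomes. On chromosome 19 THRA overlaps NR1D1 by 1101 bases on the opposite strand, and RARA follows 153.6 kb further on. On chromosome 27 RARB lies 1078 kb from THRB, which lies 86.59 kb from NR1D2. In both places the retinoic acid receptor fell, the REV-ERB receptor rose, and the thyroid hormone receptor between or beside them did not pass. The counting did not use strand, and reads in the part shared by THRA and NR1D1 (14.3% of the NR1D1 span) were dropped.

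Within a library, the ratio of counts of related receptors does not depend on scaling. For 13 pairs the log2 ratio was compared between the groups with a two-sided exact permutation test, for which the smallest p with 4 against 4 is 0.0286. At that p were 3 pairs, none of which passed after adjustment over the 13 pairs (adjusted p = 0.124). With so high a smallest p, a pair could pass only if most of the 13 reached it, so the adjusted result decides little. The log2 ratio of RXRA to RXRB was 1.73 ± 0.19 in calves and 1.17 ± 0.25 in steers, with no overlap. NR2F1 over NR2F2 was -1.85 ± 0.28 and -3.93 ± 0.89, and NR3C1 over NR3C2, glucocorticoid over mineralocorticoid receptor, was -0.17 ± 0.43 and 0.76 ± 0.32. The number of pairs at p under 0.05 was 0 without calf 2 and 1 without calf 4. RARB over RARG was -2.80 ± 0.34 and -3.58 ± 0.42 (exact p = 0.0571), and RARA over RARG was -1.02 ± 0.40 and -0.87 ± 0.53 (exact p = 0.6). The ratio of PPARA to PPARD was -1.73 ± 0.58 in calves and -1.81 ± 0.85 in steers (exact p = 0.943).

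**Figure D4:**
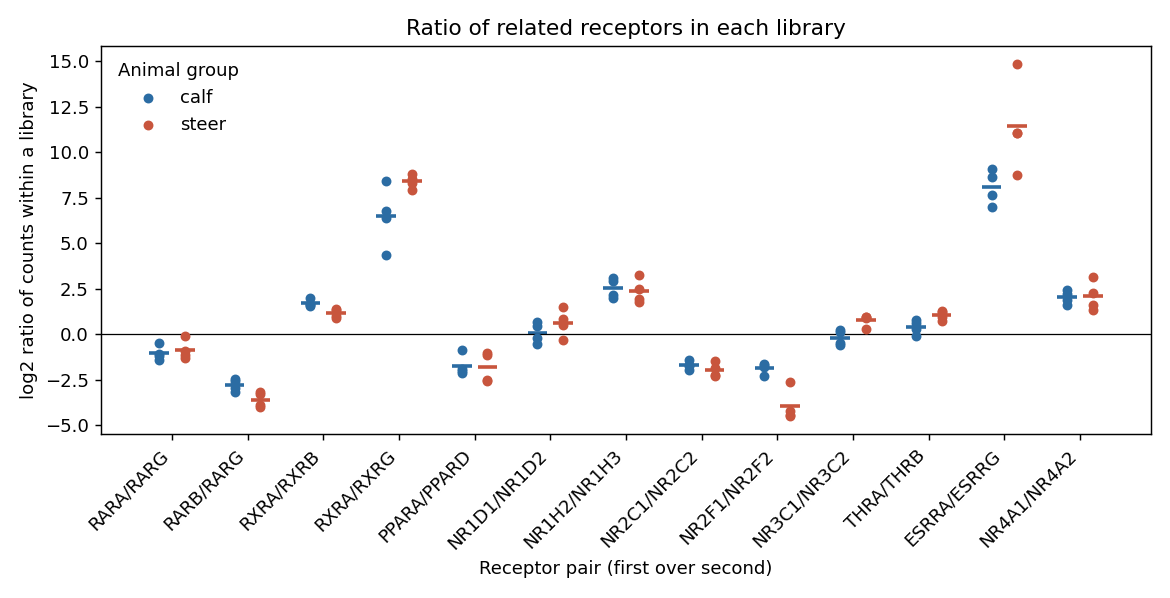
Log2 ratio of the counts of 13 pairs of related receptors in each library (points, 0.5 added to each count), with the group mean as a bar, for 4 calves and 4 steers. RXRA/RXRB, NR2F1/NR2F2 and NR3C1/NR3C2 are the pairs whose groups do not overlap, and the highest ESRRA/ESRRG point is steer 4, which had no ESRRG count.

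The direction of all 9 calls was the same in each alternative in which the gene was tested, as the plot of settings shows. RARB, RARG, ESR2, NR1D2 and ESRRA were called in all 18 alternatives, RARA in 13 of 18, NR1D1 in 15 of 18, NR5A2 in 14 of 18 and RXRG in 13 of 17. The adjusted p over the alternatives ranged from 0.00215 to 0.0605 for RARA, from 0.00094 to 0.0851 for NR1D1, from 0.000263 to 0.0587 for NR5A2 and from 9.81e-05 to 0.0935 for RXRG. With calf 2 and steer 4 left out together, libraries doubted in an earlier look at these data, 9 receptors were called, 8 of them among the 9 of the full fit.

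**Figure D5:**
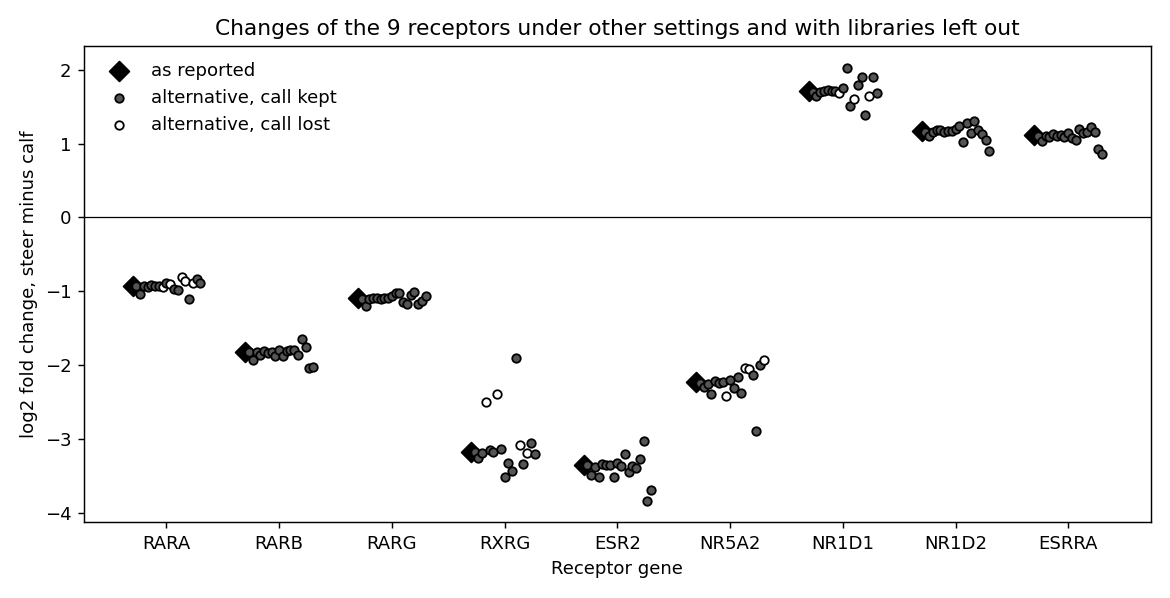
Log2 fold change of the 9 receptors that passed the test (vertical axis) as reported (diamond) and under up to 18 alternatives each (circles: other scalings, filters and tools, and libraries left out). Open circles are alternatives in which the adjusted p was not under 0.05, and no point crosses 0.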

How the data were processed

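The deposited values are raw counts, 1 row for each gene name. Per the file headers, featureCounts 2.0.2 was run over transcript spans joined by gene name, ignoring strand and counting each mate of a pair, and it left out reads that fell in more than 1 gene. The submitters' processing notes also name Trimmomatic 0.39, STAR 2.7.11a and DESeq2 1.42.0, and no build is named in the sources used here. Even values made up 86.9% to 89% of the counts from 1 to 10. Floors cover counting error only and take no account of mates counted separately.

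Steers and calves were compared in edgeR 4.0.16 (R 4.3.3), with filterByExpr by group, TMM, a robust quasi-likelihood fit and Benjamini-Hochberg adjusted p under 0.05. SE was taken as the log2 change over the root of its F statistic. The common biological coefficient of variation was 41.8%. No library repeated another of its group (smallest chi-square per degree of freedom 113). DESeq2 1.42.0 and limma 3.58.1 (voom) were alternatives. The procedure was also run on counts simulated from its own fitted means and dispersions, a check that does not cover mates counted separately. Chromosome numbers come from symbols matched to the ARS-UCD2.0 table (83.4% matched).

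The receptors and gene lists were chosen with earlier results of these data known. Named were all 39 receptors, up to 3 called genes per list and direction by mean CPM, and a fixed set of ligand enzymes and partners. The listed names BMAL1, H6PD, CYP3A28, CYP3A74 and SPRR3 matched no row. No sequence is shown, and some listed genes are not reported here.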

Additional observations from a re-analysis of the deposited data

Results flagged for a closer look

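In 60 groups of 4 libraries (30 receptors in calves and in steers), 7 held a library that stood apart from the other 3 by Dixon's test at the 95% level, where chance gives about 1 in 20. Calf 2 was the high library for NR2F2 (35.5 CPM against 9.55 to 13.4 in the other calves), NR4A1 (21.3 against 9.13 to 10.8) and NR4A3 (0.635 against 0.252 to 0.293). Calf 3 was low for RXRA (269.8 CPM against 330.2 to 337.0) and high for VDR (5.22 against 3.03 to 3.34). Calf 1 was low for RARB (22.4 CPM against 26.05 to 26.7) and steer 1 was low for NR2C1 (7.50 against 9.46 to 9.73). Calf 2 also had the fewest upper squamous marker counts of the calves (37781 CPM) and the most fibroblast marker counts (4844 CPM).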

How the results depend on the processing

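Over 30 receptors, 505 of 538 refits kept the direction and the side of the threshold, 16 lost a call, 7 gained one and 10 changed sign, all 10 for receptors that were not called. With 1 library left out, the change of RXRB ran from -0.045 (without calf 2) to 0.11 and was also below 0 without calf 3 (-0.027), steer 1 (-0.043) or steer 2 (-0.020). That of RORA ran from -0.031 (without steer 2) to 0.57, of NR2C1 from -0.16 to 0.011 (without steer 1) and of VDR from -0.10 (without steer 4) to 0.48. VDR was at -0.18 without calf 2 and steer 4 together, and by library size only RXRB was at -0.094 and NR1H2 at -0.0046. Among partner genes, none of them called, FKBP5 ran from -0.72 to 0.37 (without calf 2, and 0.21 without both libraries), CYP26B1 from -2.92 to 0.054 (without calf 2), FOS from -0.56 to 0.45 (without calf 1, and 0.25 without steer 2), FABP4 from -0.14 (without steer 1) to 3.01 and KLF9 from -0.18 (without steer 3) to 0.86. With 1 library left out, 3 to 6 receptors were called lower and 2 to 4 higher. The genes called higher over the whole table numbered 1257, against 835 by library size only, 1944 with DESeq2 and 705 to 1473 with 1 library left out. Scaling by library size only shifted the median change of all genes by -0.11 and made 34.9% of calls higher instead of 45.7%. The replicate numbers of the titles do not pair the animals (correlations of same-numbered libraries -0.334 to 0.284). With the replicate block 785 genes were called higher and 1046 lower, against 1495 lower without it, and 3 receptors were called lower. In that fit RARA, RXRG (-2.39), NR1D1 and NR5A2 lost their calls and NR2F2 gained one (0.0394). Of the partner genes named, NCOA4 (0.0568), CITED2 (0.0798), CRYM (0.0633) and CYP27A1 (0.0531) lost theirs and PPARGC1A (0.0406) gained one. Pairs of receptors past the permutation test numbered 0 to 4 with 1 library left out. The causes were not tested. The 9 receptors with 3 to 186 counts in all were too shallow to test.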
